A study of Mus musculus with 20 samples.

Results

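Elfn1, Elfn2, Lrrtm1 to Lrrtm4, Slitrk1, Slitrk3, Slitrk4 and Slitrk5 encode synapse organizers, membrane proteins of neurons whose outer part is built of leucine-rich repeats. These 10 genes, of 37607 gene rows in the bulk table, were matched by symbol and Ensembl identifier, and all 10 passed the filter on low counts. They were chosen by results of these same data. Their differences between populations are therefore given as a description, with no p-value. Expression was measured in pyramidal cells of the mouse subiculum, the region through which most hippocampal output leaves. Fluorescent cells were picked by hand, and the labels sort them by the target of their axons. The 12 bulk RNA-seq libraries comprised 3 biological replicates of each of 4 populations, labelled NA, PFC, RSC and VHN, with no further treatment, genotype, strain or age given. By common usage NA stands for nucleus accumbens, PFC for prefrontal cortex and RSC for retrosplenial cortex, while VHN is left as labelled. Single subiculum cells filled 384 wells of 4 plates. Their projection targets are not given, and no map ties wells to the 8 single-cell samples, so the wells were treated as 1 pooled sample with no test.

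Leucine-rich repeat organizers sit in the membrane on one side of the synaptic cleft and bind receptors on the other side. Elfn1 and Elfn2 bind group III metabotropic glutamate receptors, and Elfn1 is best known from somatostatin interneurons, where it acts at excitatory inputs. The Lrrtm proteins are postsynaptic and bind neurexins or glypicans, and the Slitrk proteins bind receptor tyrosine phosphatases of the LAR family.

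Elfn1 and Lrrtm1 were the 2 members called higher in RSC and VHN than in NA and PFC, so the 250 bases before the start of each gene are shown. The sequences are from RefSeq, build GRCm38.p6, both on the plus strand, at chr5:139907616-139907865 and chr6:77242227-77242476. Capitals mark the core of ETS transcription factor sites, CCGGAA, or its reverse complement, TTCCGG.

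Elfn1: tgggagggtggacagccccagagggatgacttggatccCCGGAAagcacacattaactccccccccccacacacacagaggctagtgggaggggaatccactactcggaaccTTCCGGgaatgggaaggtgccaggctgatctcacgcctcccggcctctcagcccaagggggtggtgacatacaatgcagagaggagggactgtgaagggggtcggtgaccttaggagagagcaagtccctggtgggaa

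Lrrtm1: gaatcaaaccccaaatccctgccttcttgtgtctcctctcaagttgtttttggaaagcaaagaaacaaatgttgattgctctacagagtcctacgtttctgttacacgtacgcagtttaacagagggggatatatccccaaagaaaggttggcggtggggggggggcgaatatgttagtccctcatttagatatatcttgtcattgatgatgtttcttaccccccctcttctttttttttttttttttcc

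The Elfn1 window held this form 2 times, once on each strand, beginning 212 and 138 bases before the start. A match on either strand occurred in 12.03% of 32851 such windows, and 2 or more matches in 2.49%. The Lrrtm1 window held this form in neither direction. The Elfn1 window was 60.8% G or C with 6 CG dinucleotides, against medians of 52.4% and 6 over all windows, and that of Lrrtm1 was 42.0% with 5. RefSeq windows were matched for 8 of the 10 members, and Elfn1 was the 1 member with this form. Whether these starts were used in the cells was not measured.

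The libraries held 10777271 to 20904122 gene fragments. Levels are normalised read counts (CPM, counts per 1000000 fragments), scaled by the trimmed mean of M-values (TMM). All libraries held pyramidal cell transcripts. The 9 pyramidal cell markers summed to 3303 to 4999 CPM in NA and PFC libraries and to 2369 to 2919 CPM in RSC and VHN libraries, without overlap. Of the 9, 5 were called, each higher on the NA and PFC side. The part of this difference in the results on members was not tested. Microglia markers, of which 0 of 5 passed the filter, summed to at most 1.23 CPM. In all, 3 libraries carried interneuron transcripts, with Gad2, which makes GABA, at 43.3 CPM in RSC replicate 2, 177 CPM in RSC replicate 3 and 91.9 CPM in VHN replicate 3. It was at 7.40 CPM or lower in the other libraries. NA replicate 2 and PFC replicate 3 stood apart on principal components 2 and 3.

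Elfn1 (ENSMUSG00000048988) had the widest range of the members. It was at 513, 408 and 407 CPM in RSC replicates 1 to 3 and at 279, 269 and 184 CPM in those of VHN. In NA it was at 56.3, 38.9 and 47.0 CPM, and in PFC at 24.8, 5.82 and 7.31 CPM. The 4 populations did not overlap, in the order RSC, VHN, NA and PFC. The means were 443 ± 60.8, 244 ± 52.2, 47.4 ± 8.70 and 12.6 ± 10.5 CPM (SD, n = 3 each), so that the mean in RSC was 35.03-fold that in PFC. Over both sides, RSC and VHN were 11.4-fold higher in mean CPM than NA and PFC. The edgeR log2 fold change of NA and PFC over RSC and VHN was -3.75 (SE 0.306, 95% interval -4.39 to -3.10). In bulk libraries, fewer cells that express a gene and less of its RNA in each cell cannot be told apart.

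The neighbours in this order differed less. Elfn1 was 1.81-fold higher in RSC than in VHN in mean CPM (log2 fold change 0.86, SE 0.388, interval 0.04 to 1.68), which did not pass the adjusted threshold. It was 3.75-fold higher in NA than in PFC (log2 fold change 1.91, SE 0.406, interval 1.05 to 2.77), which passed. PFC replicate 1, at 24.8 CPM, lay nearest to NA. Leaving out any 1 library other than PFC replicate 1 ended this call.

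**Figure D1:**
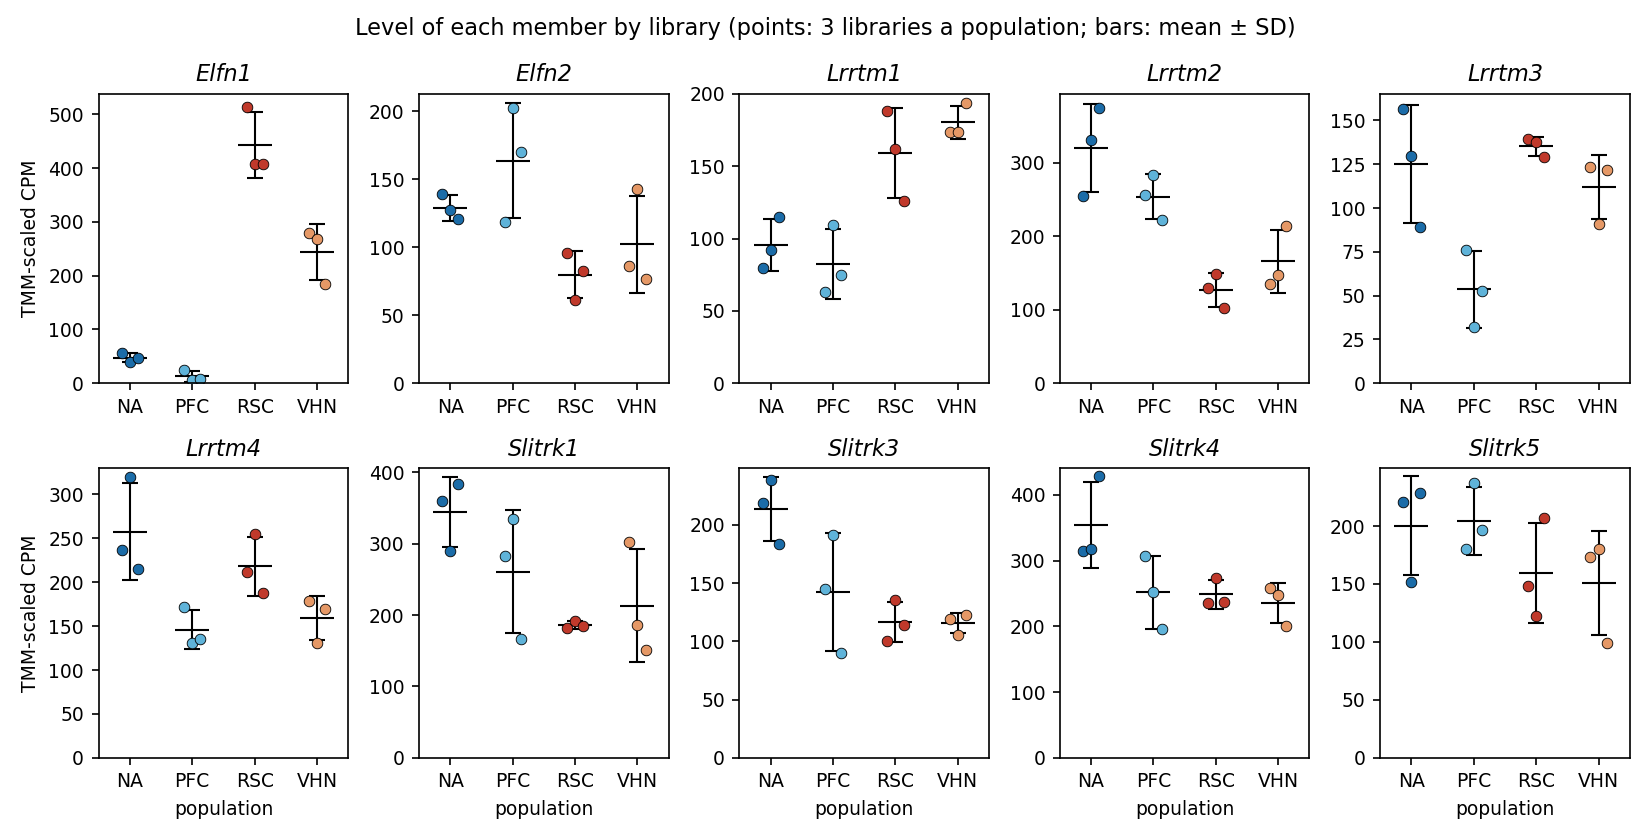
TMM-scaled CPM of the 10 members in each of the 12 libraries, 1 panel a gene, with points for libraries and bars for the mean ± SD of 3. Elfn1 spans 5.82 to 513 CPM without overlap between populations, whereas Slitrk5 overlaps in all of them.

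Elfn1 is known from interneurons, so their transcripts are given beside it. The 14 interneuron markers summed to 5.25, 77.5 and 322 CPM in RSC replicates 1 to 3 and to 1.52, 3.69 and 205 CPM in those of VHN. In NA they summed to 14.4, 17.1 and 0.313 CPM, and in PFC to 0.780, 3.60 and 1.03 CPM. Of the 14 markers, 8 passed the filter and 4 were called lower in NA and PFC. RSC replicate 1, in which Gad1 and Gad2 were both at 0, had the highest Elfn1 level of all libraries. In VHN, replicates 1 and 2, with Gad2 at 0.158 and 0.238 CPM, were above replicate 3. Without RSC replicates 2 and 3 and VHN replicate 3, the log2 fold change of Elfn1 between the sides was -3.92. Endothelial and mural markers summed to 24.0 to 91.8 CPM in NA and PFC and to 2.02 to 21.5 CPM in RSC and VHN, with 2 or 3 of the 4 at 0 in each library. Rgs5 alone was at 23.8 to 91.8 CPM in NA and PFC and at 1.31 to 21.5 CPM in RSC and VHN. Cldn5 was at 0 in every library, and Pecam1 and Flt1 were at 3.12 CPM or lower. The part of these markers in the results on members was not tested.

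**Figure D2:**
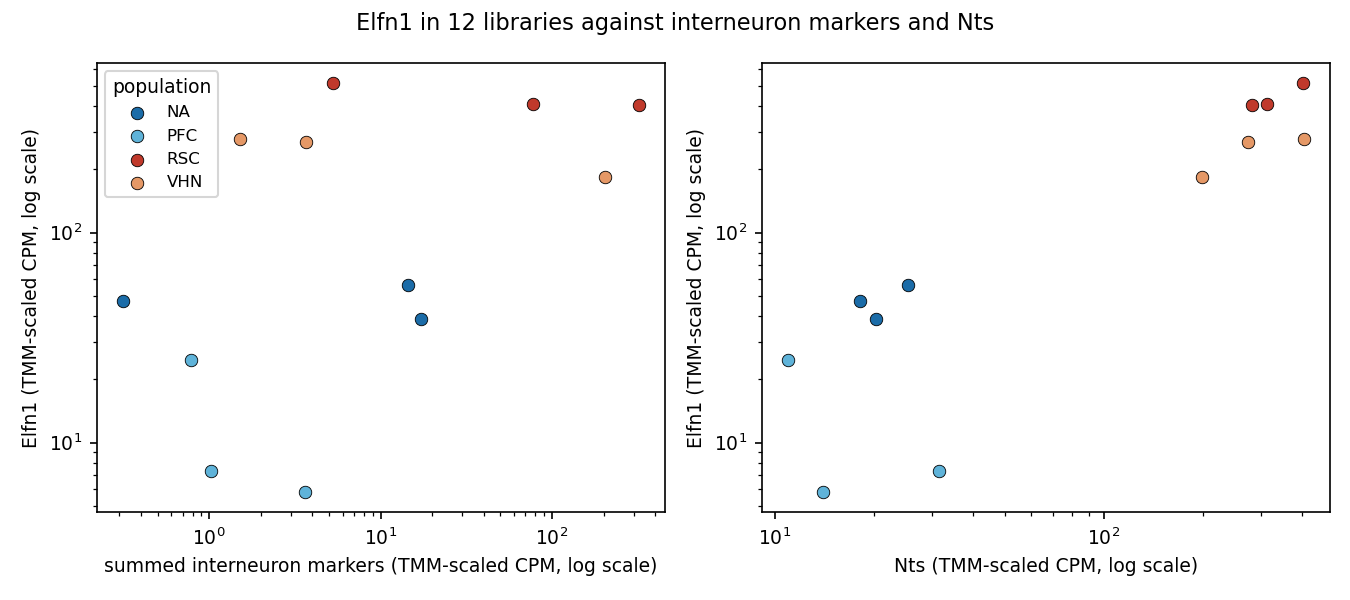
Elfn1 against the summed interneuron markers (left) and against Nts (right), both axes in TMM-scaled CPM on a log scale, 1 point a library and coloured by population. RSC and VHN libraries lie at 184 CPM of Elfn1 or more, with interneuron marker sums from 1.52 to 322 CPM. All 6 have Nts at 199 CPM or more.

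Elfn2 (ENSMUSG00000043460), the paralog of Elfn1, went the other way. It was at 140, 128 and 121 CPM in NA and at 119, 202 and 170 CPM in PFC. In RSC it was at 95.8, 61.4 and 82.6 CPM and in VHN at 86.3, 143 and 77.0 CPM. The sides overlapped through VHN replicate 2. The log2 fold change was 0.69 (SE 0.205, interval 0.25 to 1.12). Without the 3 libraries that carried interneuron transcripts it was 0.48 and no longer passed. In the annotation Elfn2 shares bases with an antisense RNA gene, and whether reads were counted by strand is not given, so reads of the pair cannot be told apart.

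Lrrtm1 (ENSMUSG00000060780) was the second member on the side of Elfn1. It was at 188, 162 and 126 CPM in RSC and at 174, 173 and 193 CPM in VHN. NA had 79.7, 91.9 and 115 CPM and PFC 63.1, 109.7 and 75.0 CPM, so the sides did not overlap. The mean was 1.90-fold higher in RSC and VHN (log2 fold change -0.93, SE 0.185, interval -1.32 to -0.54). It was not called between RSC and VHN (log2 fold change -0.18, SE 0.259) or between NA and PFC (0.21, SE 0.260).

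Lrrtm2 (ENSMUSG00000071862) had the reverse pattern. It was at 255, 331 and 375 CPM in NA and 257, 283 and 222 CPM in PFC. It was at 129, 148 and 102 CPM in RSC and 136, 147 and 215 CPM in VHN. The lowest NA and PFC library, PFC replicate 3, lay just above the highest of the others, VHN replicate 3. The mean was 1.96-fold higher in NA and PFC (log2 fold change 0.98, SE 0.165, interval 0.63 to 1.33). Thus Lrrtm1 and Lrrtm2, both postsynaptic ligands of neurexins, differed in opposite directions.

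Lrrtm3 (ENSMUSG00000042846) was low in 1 population in CPM. PFC had 76.1, 32.1 and 52.4 CPM, below all libraries of NA (157, 129 and 89.3 CPM), RSC (139, 138 and 129 CPM) and VHN (124, 91.2 and 122 CPM). It was called in the test over the 4 populations but not between the sides (log2 fold change -0.59, SE 0.220). The first of these calls was lost in 14 of 21 alternatives, among them no normalization, limma on FPKM, and leaving out NA replicate 1, PFC replicate 2 or 3, or any 1 library of RSC or VHN. Between NA and PFC the log2 fold change was 1.23 (SE 0.314), which did not pass. On the authors' length-scaled FPKM values the side difference was -0.04 on the log2(FPKM + 1) scale. In FPKM the PFC libraries overlapped the others. PFC replicate 1, at 58.9 FPKM, lay above NA replicate 3 (53.0), RSC replicate 3 (53.2) and VHN replicate 2 (57.2). Lrrtm4 (ENSMUSG00000052581), a ligand of glypicans, ranged over 215 to 320 CPM in NA, 188 to 255 in RSC, 131 to 172 in PFC and 131 to 178 in VHN. Its side difference was 0.06 (SE 0.159, interval -0.28 to 0.39).

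In the annotation (GENCODE M21, GRCm38) Lrrtm1, Lrrtm2 and Lrrtm3 lie wholly inside Ctnna2, Ctnna1 and Ctnna3, genes of alpha catenins, on the opposite strand. Without a stated strand, reads of host and nested gene cannot be told apart. Ctnna2 was at 67.2 to 190 CPM over the 12 libraries (log2 fold change -0.44, edgeR adjusted p = 0.155). Ctnna1 was at 7.34 to 68.3 CPM (0.07, edgeR adjusted p = 0.95) and Ctnna3 at 3.55 CPM or lower (-0.49, edgeR adjusted p = 0.852). None of the 3 hosts was called. In the same annotation Elfn1 shares bases with a pseudogene on the opposite strand, and Lrrtm4 with several noncoding genes on either strand.

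The 4 Slitrk members had smaller differences, each with a positive log2 fold change for NA and PFC. Slitrk1 (ENSMUSG00000075478) was at 359, 290 and 384 CPM in NA, 282, 335 and 167 CPM in PFC, 182, 192 and 185 CPM in RSC and 302, 187 and 150 CPM in VHN. PFC replicate 3 and VHN replicate 1 carried the overlap of the sides (log2 fold change 0.59, SE 0.191, interval 0.19 to 0.99). Slitrk3 (ENSMUSG00000048304), which promotes inhibitory synapses, was at 219, 238 and 184 CPM in NA and 145, 191 and 90.3 CPM in PFC. It was at 100.4, 135 and 114 CPM in RSC and 119, 106 and 122.7 CPM in VHN (log2 fold change 0.58, SE 0.185, interval 0.19 to 0.98). PFC replicate 3 was again the library that overlapped the other side. Both calls were lost without normalization (log2 fold changes 0.53 for Slitrk1 and 0.51 for Slitrk3) and without the 3 libraries that carried interneuron transcripts (0.52 and 0.73), a fit with fewer samples. With a replicate block, Slitrk3 was not called either (0.56).

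Slitrk4 (ENSMUSG00000046699) and Slitrk5 (ENSMUSG00000033214) were not called between the sides. Slitrk4 ranged from 196 to 429 CPM in NA and PFC and from 201 to 274 CPM in RSC and VHN (log2 fold change 0.30, SE 0.147, interval -0.01 to 0.61). Slitrk5 ranged from 151 to 237 CPM and from 98.9 to 207 CPM (0.38, SE 0.193, interval -0.02 to 0.79). The intervals allow differences of up to 0.61 and 0.79, so the 2 genes are not shown to be equal.

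Of the 10 members, 6 passed an edgeR adjusted p of 0.05 between NA and PFC together and RSC and VHN together, 4 higher and 2 lower in NA and PFC. Of all 13916 genes tested, 14.2% passed, and the members were selected on this contrast, so nothing is read from their share. The sides did not overlap for 3 members, Elfn1, Lrrtm1 and Lrrtm2, and for 7.52% of all genes tested. These 3 were also called under all 21 alternative settings, with log2 fold changes of -4.22 to -3.55, -1.06 to -0.84 and 0.91 to 1.09. Elfn2, Slitrk1 and Slitrk3 were called under 10, 8 and 6 of the 21. In the test over the 4 populations 4 members passed, where 8.93% of all genes did, and between NA and PFC Elfn1 alone passed, where 0.438% of all genes did. Between RSC and VHN edgeR called 0 of the 10 members and 0% of all genes. Without adjustment, 721 genes and 1 member, Elfn1, were under 0.05, and DESeq2 called 59 genes and limma 0, with none of the members. The median log2 fold change between the sides was 0.34 over the members and 0.01 over all genes tested.

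**Figure D3:**
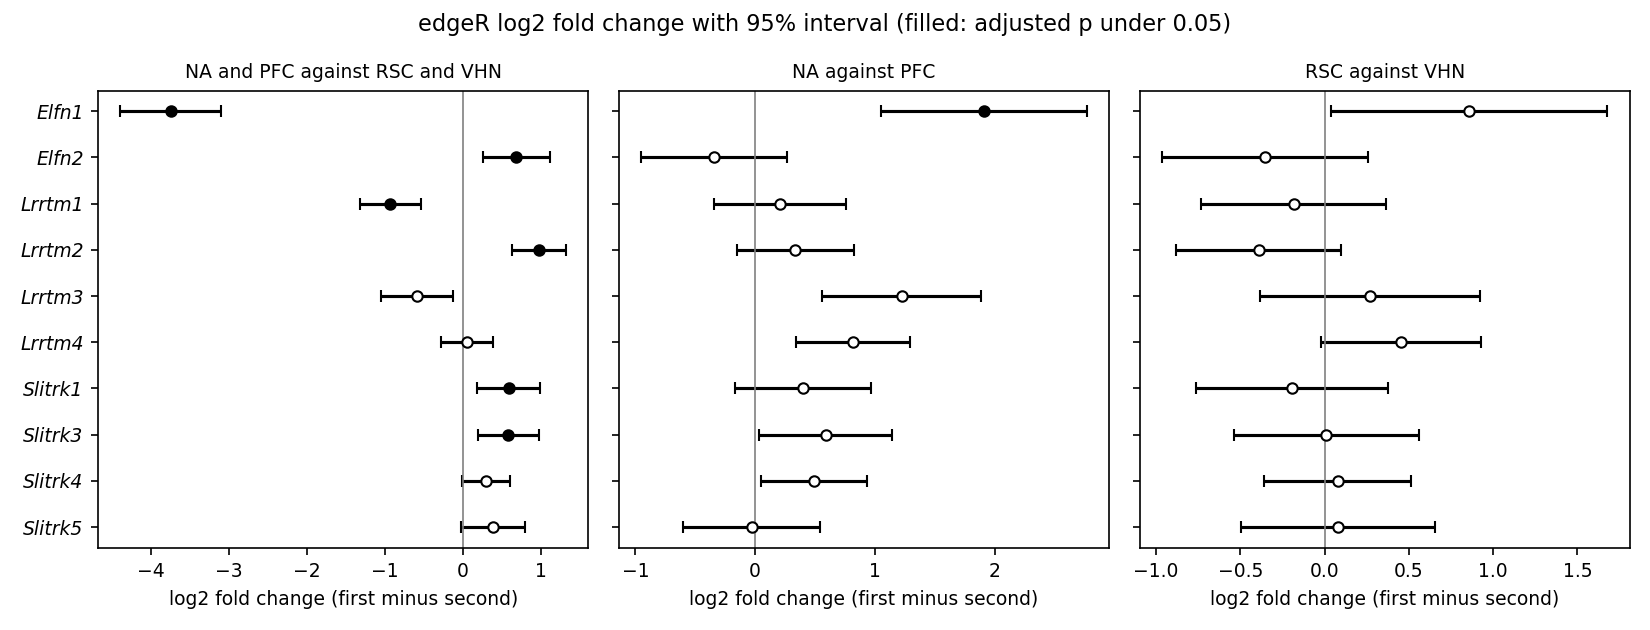
Log2 fold changes of the 10 members with 95% intervals in 3 comparisons, filled where the adjusted p was under 0.05. Elfn1 lies at -3.75 in the first panel and 1.91 in the second, and all other members lie between -0.93 and 1.23.

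Levels of different members were compared per gene length, as FPKM. Lrrtm4 had the highest median over the 12 libraries (133 FPKM), and Elfn2 the lowest (24.2 FPKM). The place of Elfn1 among the members depended on the population. In RSC it was at 113 ± 15.6 FPKM, second to Lrrtm4 at 179 ± 32.7 FPKM (SD, n = 3 each). In PFC it was the lowest member, at 3.26 ± 2.73 FPKM, below Lrrtm1 at 31.3 ± 8.998 FPKM (SD, n = 3 each).

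A list of 29 other leucine-rich repeat adhesion genes was examined, of which 27 were tested. Of these, 12 were called, 11 of them higher in NA and PFC, with a median log2 fold change of 0.63 against 0.01 over all genes, of which 14.2% were called. The calls were 11 higher and 3 lower without normalization, 12 and 3 with DESeq2, 10 and 4 without NA replicate 2, and 7 and 1 without the 3 libraries that carried interneuron transcripts. Islr2, needed for axon growth of some neurons, had mean CPM values of 71.4 ± 59.1 (NA), 71.2 ± 10.2 (PFC), 5.98 ± 9.01 (RSC) and 7.41 ± 6.46 (VHN), with SD over n = 3. Its log2 fold change was 3.42 (SE 0.820, edgeR adjusted p = 0.00959). Lrfn1, a postsynaptic protein that binds PSD-95, was higher with a log2 fold change of 2.48 (SE 0.669, edgeR adjusted p = 0.0193). Slitrk2 and Slitrk6 of the list belong to the family of the Slitrk members. Slitrk2 had mean CPM values of 209 ± 19.0 (NA), 104 ± 29.5 (PFC), 48.9 ± 17.0 (RSC) and 47.1 ± 5.15 (VHN), with SD over n = 3. Its log2 fold change was 1.62 (SE 0.217, edgeR adjusted p = 0.000105). Slitrk6 was not called (log2 fold change 1.64, SE 1.54, edgeR adjusted p = 0.54). It was at 35.4 CPM in PFC replicate 3 and at 1.47 CPM or lower in the other libraries. The gene lower in NA and PFC was Lgi3, a secreted protein of the family of Lgi1. Its mean CPM was 10.4 ± 8.45 (NA), 25.99 ± 5.57 (PFC), 94.6 ± 18.0 (RSC) and 87.4 ± 37.1 (VHN), with SD over n = 3 (log2 fold change -2.46, SE 0.364, edgeR adjusted p = 0.000259).

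Genes of the known binding partners were read in the same cells, although the partner proteins act on the opposing side of the synapse. The values therefore describe these cells and not the neurons they contact. Of 16 partner genes 14 were tested, and the 2 that were called were higher in NA and PFC. Of all genes tested 14.2% were called, so nothing is read from this count. Gpc4, a glypican, had mean CPM values of 31.7 ± 17.6 (NA), 34.7 ± 17.3 (PFC), 4.29 ± 3.08 (RSC) and 10.1 ± 8.08 (VHN), with SD over n = 3 (log2 fold change 2.34, SE 0.664, edgeR adjusted p = 0.0251). Its call was lost without the 3 libraries that carried interneuron transcripts. The group III receptor gene Grm7, a partner of the Elfn proteins, had a log2 fold change of 0.49 (SE 0.302, edgeR adjusted p = 0.323). The phosphatase genes Ptprs and Ptprd, partners of the Slitrk proteins, had 0.03 (SE 0.127, edgeR adjusted p = 0.907) and 0.15 (SE 0.117, edgeR adjusted p = 0.436).

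The genes with the profile most like that of Elfn1 were Fbxo47, Ptprt, Slc5a5, Syt2 and Cox6c. Pearson's r of log2(CPM + 1) was 0.970, 0.970, 0.970, 0.969 and 0.968 over the 12 libraries, among 8517 genes of at least 10 CPM on average. The libraries fall into the same 4 populations for every gene, so these r values describe the ranking and carry no p. Syt2, a calcium sensor of synaptic vesicles, had mean CPM values of 502 (RSC), 233 (VHN), 4.36 (NA) and 1.36 (PFC). Ptprt, a receptor tyrosine phosphatase, was at means of 1336, 1206, 582 and 301 CPM in that order.

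In the single-cell table, 348 of the 384 wells passed a minimum of 1000 detected genes. They held a median of 112401 counts (2795 to 322542). Whether molecular identifiers were used is not given, so the intervals below cover counting error only. A well held counts of a median of 6 of the 10 members, and 253 wells held at least 5. Elfn1 was counted in 99 wells, 28.4% (95% exact binomial interval 23.8% to 33.5%), and in no well above 29 counts. Elfn2 was counted in 47.4% of wells, Lrrtm1 in 81.9%, Lrrtm2 in 39.4%, Lrrtm3 in 67.2% and Lrrtm4 in 33.3%. The shares were 33.6% for Slitrk1, 60.9% for Slitrk3, 56.3% for Slitrk4 and 91.4% for Slitrk5. Thinned to 50000 counts a well, which left out 30 wells, the share was 24.8% for Elfn1 and 39.9% for Elfn2.

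Of the interneuron markers, Gad1, Gad2 and Sst were read in the wells, and each was rare. Gad1 or Gad2 was counted in 3 of the 348 wells, and Elfn1 in 1 of those 3 and in 98 of the other 345. Pooled Elfn1 was at 29.1 CPM (95% Poisson interval 15.5 to 49.8) in those 3 wells, from 13 counts. It was at 13.9 CPM (12.7 to 15.1) in the other 345. Slc17a7, the vesicular glutamate transporter of pyramidal cells, was counted in 93.7% of wells, and Sst, the marker of somatostatin interneurons, in 1 well.

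Wells were split by neurotensin, Nts, a neuropeptide that separated the sides in bulk (199 to 406 CPM in RSC and VHN libraries, 10.9 to 31.6 CPM in NA and PFC libraries). At a threshold of 100 CPM, 204 wells were high and 144 low, with medians of 116846 and 101632 counts. Slc17a7 was counted in all 204 high wells but in 122 of the 144 low wells. The part of the low wells without Slc17a7 in the ratios and shares below was not tested. The split is a range and not a cell type, and 65 wells lay between 50 and 200 CPM. Elfn1 was at 19.5 CPM (95% Poisson interval 17.8 to 21.3) in the pooled Nts-high wells and at 4.66 CPM (3.61 to 5.91) in the Nts-low wells. This was a ratio of 4.19 (interval 3.24 to 5.49), and at an Nts threshold of 50 CPM it was 7.20. Plates Q5, Q6 and Q8 gave ratios of 2.37, 3.56 and 3.93. In Q7, 121 counts fell in Nts-high wells and 0 in the 32 Nts-low wells, a ratio with a lower 95% bound of 15.7. After thinning, 32.2% of 202 Nts-high and 12.1% of 116 Nts-low wells held Elfn1.

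Lrrtm3 and Lrrtm1 were also higher in Nts-high wells. Lrrtm3 was at 99.2 against 51.0 CPM, a ratio of 1.95 (interval 1.79 to 2.12), which ranged from 1.26 in Q8 to 2.94 in Q6. Lrrtm1 was at 134.6 against 84.0 CPM, a ratio of 1.60 (1.499 to 1.71), with plates from 1.25 to 2.29. Lrrtm4 had a pooled ratio of 1.45 (1.24 to 1.70), but the plates ranged from 0.702 in Q6 to 2.93 in Q8. Slitrk3 was lower in Nts-high wells, at 47.7 against 74.0 CPM, a ratio of 0.645 (0.593 to 0.701), and it was under 1 on each plate (0.618 to 0.833). The ratio was 0.901 (0.773 to 1.05) for Elfn2, 1.09 (0.964 to 1.23) for Lrrtm2, 1.06 (0.908 to 1.25) for Slitrk1, 1.05 (0.966 to 1.13) for Slitrk4 and 1.11 (1.07 to 1.14) for Slitrk5. For each of these 5 the plates lay on both sides of 1: 0.725 to 1.22 for Elfn2, 0.794 to 1.69 for Lrrtm2, 0.408 to 2.20 for Slitrk1, 0.619 to 2.20 for Slitrk4 and 0.889 to 1.37 for Slitrk5. Set beside the bulk values, the ratios of Elfn1, Lrrtm1, Lrrtm3, Slitrk3 and Elfn2 pointed the same way as the log2 fold changes between the sides. Of these, the well interval of Elfn2 included 1 and the bulk difference of Lrrtm3 was not called. The ratios of Lrrtm2, Slitrk1, Slitrk4 and Slitrk5 pointed the other way, but most of these directions are not resolved. The well intervals of Lrrtm2, Slitrk1 and Slitrk4 included 1, and the bulk differences of Slitrk4 and Slitrk5 were not called. Lrrtm4 had a bulk difference near 0. Nts-low wells are not labelled as NA or PFC cells.

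**Figure D4:**
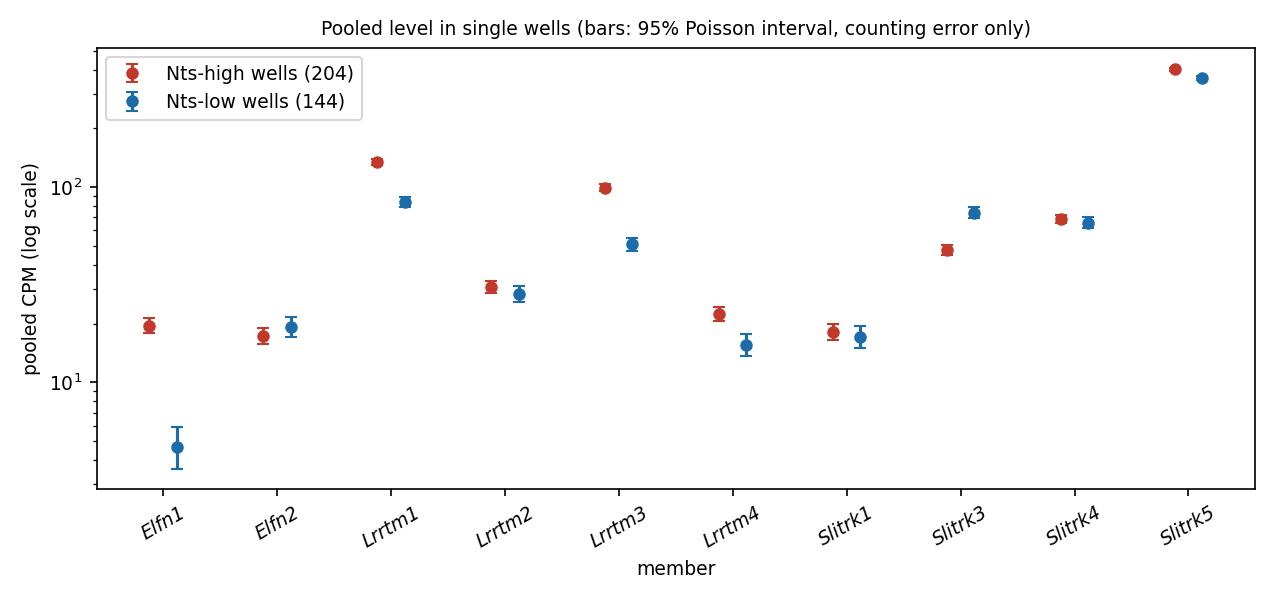
Pooled CPM (log scale) of each member in 204 Nts-high and 144 Nts-low wells, with 95% Poisson intervals that cover counting error only. Elfn1 lies at 19.5 against 4.66 CPM, and Slitrk3 at 47.7 against 74.0 CPM.

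A second split by calbindin, Calb1, at the same threshold was chosen after the values were seen. Calb1 was higher in NA and PFC in bulk (log2 fold change 4.88, edgeR adjusted p = 0.00134). Elfn1 was counted in 80 of 179 wells with high Nts and low Calb1 (44.7%, interval 37.3% to 52.3%), at 21.9 CPM. It was counted in 1 of 61 wells with low Nts and high Calb1 (1.64%, interval 0.04% to 8.80%), as a single count. Depth was alike in these classes, with medians of 115701 and 115774 counts. The 83 wells low in both held Elfn1 in 15 (18.1%) and were shallower (median 81575 counts), and the 25 wells high in both held it in 3. Lrrtm3 was at 109 CPM in wells with high Nts and low Calb1 and at 32.3 CPM in wells with low Nts and high Calb1. Slitrk3 was at 43.6 and 92.5 CPM in the same classes. Slitrk5 was at 403 and 420 CPM.

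**Figure D5:**
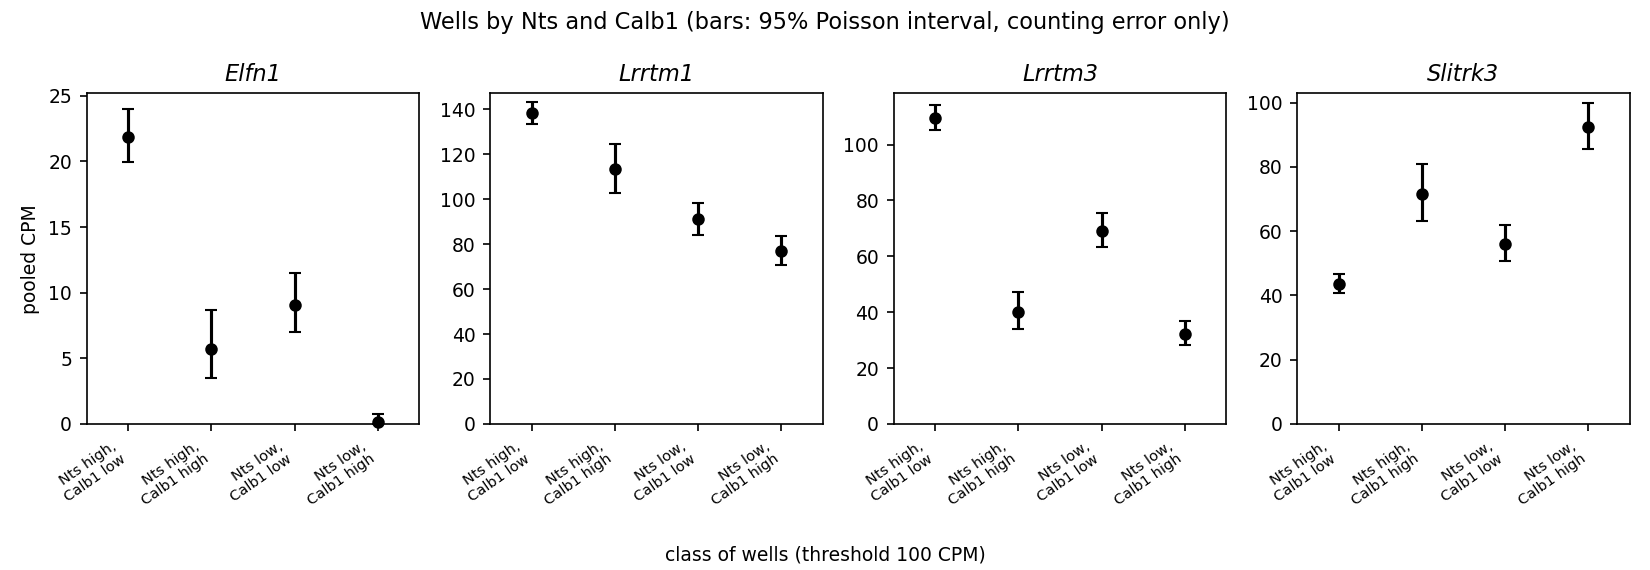
Pooled CPM of 4 members in wells classed by Nts and Calb1 at 100 CPM, with 95% Poisson intervals for counting error only. Elfn1 falls from 21.9 CPM in wells with high Nts and low Calb1 to 0.14 CPM in wells with low Nts and high Calb1, and Slitrk3 lies at 43.6 and 92.5 CPM.

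Across the 348 wells the Spearman rank correlation of Elfn1 was 0.41 with Nts, -0.29 with Calb1 and 0.29 with Lrrtm3, and between -0.08 and 0.18 with the other members. For the genes most like it in bulk it was 0.45 for Syt2, 0.35 for Ptprt, 0.32 for Slc5a5, 0.13 for Cox6c and 0.07 for Fbxo47, which was counted in 29 wells. These values share the depth of each well and are a description.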

How the data were processed

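The 12 bulk libraries and 384 single-cell wells were used as deposited. Per the file headers, the authors' bulk table gives raw fragments, which are expected counts per gene and library, and FPKM values. These were rounded, since 8.51% of the nonzero values had decimals. The authors' single-cell table gives counts by gene for each well, all whole numbers. The build was mm9 per the submitters' processing notes. The aligner, annotation and strand setting are not given in the sources used here. Members and lists were chosen with earlier results of these data known.

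Genes were filtered with filterByExpr (smallest count 10), scaled by TMM and fitted over all 12 libraries with edgeR 4.0.16 (quasi-likelihood, common biological coefficient of variation 0.736, R 4.3.3), with a Benjamini-Hochberg adjusted p threshold of 0.05 over 13916 genes. Contrasts were the 4-population test, NA and PFC against RSC and VHN, NA against PFC, and RSC against VHN. Named genes are all members, the called list genes with the 3 largest changes in each direction, and the 5 genes most correlated with Elfn1. Of these, 1 gene is not reported here. DESeq2 1.42.0 and limma 3.58.1 served as alternatives, beside other scalings, filters and left-out libraries. The fit was tested on simulated data. Intervals for wells are exact (SciPy, 95%). Replicates are separate biological samples per the labels. The table numbers replicates from 0, and the order of the labels was assumed only to name libraries.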

Additional observations from a re-analysis of the deposited data

How the results depend on the processing

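The direction of the log2 fold change between the sides stayed in all 21 alternatives for each member but Lrrtm4, whose value lay between -0.09 and 0.12. The 4-population test called 4 members, 7 without the low-count filter and 7 with DESeq2, and 2 without RSC replicates 2 and 3 and VHN replicate 3, which carried interneuron transcripts. Leaving out 1 library gave 2 to 4, with 2 without VHN replicate 3. The side contrast called 6 members, and 3 without normalization, 3 with limma on log2(FPKM + 1), 3 on log2(FPKM + 0.1) and 3 without the libraries with interneuron transcripts, where the test had fewer samples and 746 genes in all passed. Leaving out 1 library gave 3 to 5, with 3 without NA replicate 1, PFC replicate 2, RSC replicate 2 or 3 or VHN replicate 3. NA against PFC called 1 member, 3 without the filter and 3 with DESeq2, and 0 with DESeq2's size factors in edgeR, without normalization, with limma at either pseudocount, without the libraries with interneuron transcripts, and without NA replicate 2 and PFC replicate 3, an alternative added after the data were seen. Leaving out 1 library gave 0 to 1. The 2 partner calls became 4 with DESeq2, 4 without NA replicate 2 and PFC replicate 3, and 0 without the libraries with interneuron transcripts. Leaving out 1 library gave 1 to 3, with 1 without NA replicate 1 or 3, PFC replicate 1 or 2, or RSC replicate 3. The cause of these changes was not tested. The replicate numbers did not pair the samples: over 18 pairs with the same number, deviations correlated at -0.03 to 0.04. With the replicate block the counts were 4 in the 4-population test, 5 between the sides, 1 for NA against PFC and 0 for RSC against VHN.

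In the wells, the Elfn1 ratio of Nts-high to Nts-low wells was 7.20 at a threshold of 50 CPM, and the Lrrtm2 ratio was 1.53. The Slitrk4 ratio was 0.963 at 50 CPM and 1.18 at 200 CPM. Thinning, which also left out 30 shallow wells, moved 3 of 10 shares beyond their intervals, those of Elfn2 and Slitrk1 (27.4%) downward and that of Slitrk5 (95.6%) upward. With 3 libraries a population and 8 residual degrees of freedom, small differences are not resolved.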
